A study of Anolis sagrei with 15 samples.

Results

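The central region of the posterior globe was compared with the nasal and temporal regions that flank it in embryos of the brown anole, *Anolis sagrei*. All 15 of the 15 RNA-seq libraries of the study entered a single fit with the replicate number as a block, 5 central, 5 nasal and 5 temporal. A gene model was counted as following a centre-to-periphery pattern when the central region differed from nasal and from temporal tissue in the same direction, each at an adjusted p under 0.05, and 1514 of the 15910 gene models tested did so. Every library came from embryos at Sanger stage 16.5 of both sexes, laid by wild-caught parents, with no treatment and no genotype that sets one region apart. According to the methods of the study, tissue of each region was pooled from 3 embryos. Replicate numbers run over the same 5 values in every region, and nothing in the labels says what libraries of 1 number share. With the number as a block, differences shared by libraries of 1 number are taken out. The p-values measure the spread between pools that is left, which may be partly technical. Tissue of the posterior globe can hold retina, optic disc, pigment epithelium, choroid and sclera. In such bulk RNA fewer cells of a type and less RNA per cell cannot be told apart.

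Anoles are diurnal lizards whose eye forms a deep central fovea and a shallower temporal one, pits in areas of dense cones that serve acute vision. Their retina is regarded as built almost entirely of cones. In the chick, whose high-acuity area forms in the central retina, the enzymes that break down retinoic acid and the growth factor FGF8 mark that area in the embryo. The vertebrate retina makes its cell types in a set order from dividing progenitors, starting near the centre and ending at the margin, while signals from the stalk, the lens and the pigment epithelium help to set position.

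Between 15712525 and 27035312 reads were counted in a central library, between 18365334 and 25166494 in a nasal and between 15177438 and 24688374 in a temporal one. Values are given in CPM, the usual rate of counts over the counted reads of a library after TMM scaling. They are not corrected for gene length and so compare libraries and not genes. A value after ± is the SD over 5 libraries for a CPM. For a log2 fold change it is an approximate standard error, called the standard error here. It is the size of the change divided by the square root of the F statistic of its test. It can be too small where a region has few reads. Log2 fold changes are of central over the mean of both flanks unless another contrast is named. Central replicate 4 stood apart, with reads in 14994 gene models, against 17603 to 18617 in the other central libraries, and counts of list members are also given without it where they change. Its summed level of 38 sclera, cartilage and mesenchyme gene models was 4149 CPM, against 594 to 1572 CPM in the other central libraries, 670 to 1669 CPM in nasal and 755 to 1713 CPM in temporal libraries. Muscle genes summed to 65.6 to 76.5 CPM in central, 57.4 to 92.2 CPM in nasal and 60.6 to 82.7 CPM in temporal libraries. Blood genes summed to 882 to 1347 CPM in central, 536 to 1560 CPM in nasal and 856 to 2100 CPM in temporal libraries. RCVRN of photoreceptors and PMEL of pigment cells, which mark the labelled tissue, were read in every library. Some symbols are carried by several gene models, and reads split between copies make the level of each uncertain. Among the genes described they include CYP1B1, MGP, SST, RBP4, BMP2, INHBB, VEGFA, SLC2A1, TTR, SEMA3F, SLIT2, DACT2 and CALB2. Also among them are CENPF, SFRP2, CRABP2, STRA6, SPRY2, GUCA1B, IMPG2, PMEL, LAMA1, CPLX3 and CHAD. A count of 0 in a single library allows at most 0.111 to 0.198 CPM, a limit that covers counting error only.

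Gene models higher in the central region than in both flanks numbered 852, or 5.36% of those tested, and those lower than in both flanks numbered 662, or 4.16%. Behind these counts, 2275 gene models (14.3%) were higher and 2163 (13.6%) lower in central than in nasal tissue, while 1009 (6.34%) were higher and 1013 (6.37%) lower in central than in temporal tissue. Against the mean of both flanks 1929 (12.1%) were higher and 1731 (10.9%) lower, and 2146 of these did not follow the pattern. The comparisons with nasal and with temporal tissue share their 5 central libraries. A gradient across the eye, with the central region between its flanks and different from both, was found for 40 gene models, of which 36 were highest in temporal and 4 in nasal tissue. Without central replicate 4, 954 gene models were higher and 765 lower than in both flanks, including 755 and 571 of those called with it. Without the replicate block 492 were higher and 343 lower, and all of these were also called with the block.

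Among the 852 higher gene models the median log2 fold change of central over the mean of both flanks was 0.68, with 257 changed by more than 2-fold and 65 by more than 4-fold. The 662 lower ones had a median of -0.60, with 159 beyond 2-fold and 52 beyond 4-fold, and the median over all gene models tested was -0.04. All 5 central libraries lay above all 10 flanking libraries in 424 of the 852, where 448 of all gene models tested (2.82%) did so. They lay below all 10 in 287 of the 662, where 310 of all gene models (1.95%) did so. The higher gene models took 13.0% of the counted reads in the central region, 7.23% in nasal and 8.72% in temporal tissue. The lower gene models took 5.603% in the central region, 8.55% in nasal and 7.71% in temporal tissue. These gene models were chosen by the same libraries, so the direction of these shares was set by the choice. The separation of the libraries is likewise no further evidence for the pattern. At the threshold itself, MOSPD2 (ANOSAT008408) was the gene model just outside, with a larger adjusted p of 0.05005, and the larger adjusted p just inside was 0.0499.

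**Figure D1:**
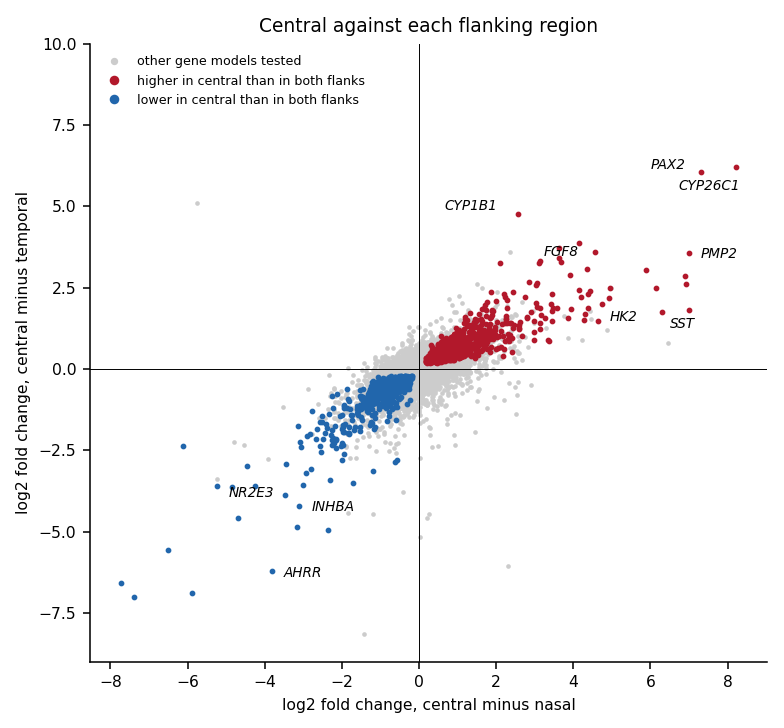
Log2 fold change of each of the 15910 gene models tested, central minus nasal on the x axis and central minus temporal on the y axis. The 852 gene models higher in central than in both flanks lie in the upper right and the 662 lower ones in the lower left, and the axes share the central libraries.

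The flanks were not alike for many of these genes. Nasal and temporal tissue differed in 298 of the 852 higher gene models (35.0%) and in 168 of the 662 lower ones (25.4%), against 2216 (13.9%) of all gene models tested. Nasal minus temporal is the difference between the contrasts that chose these gene models, in the same libraries. Gene models with little spread also pass every contrast more easily. The larger shares therefore cannot be read as a trait of the pattern. Among the higher gene models that differed between the flanks, nasal was the lower of the flanks in 293 and the higher in 5. Among the lower gene models, nasal was the higher of the flanks in 142 and the lower in 26. The median change of the 852 was 0.83 against nasal and 0.56 against temporal tissue, and that of the 662 was -0.66 against nasal and -0.52 against temporal tissue. The change was larger against nasal than against temporal tissue in 676 of the 852 and in 432 of the 662, and CYP1B1, AHRR, TIPARP and INHBA, described here, were among the exceptions.

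Genes were grouped by role in 28 lists, whose members were set against the shares over all gene models, 5.36% higher and 4.16% lower. The shares are of gene models, so a symbol on several gene models counts more than once. The glycolysis and hypoxia list and the photoreceptor list had the largest shares of higher members, 53.1% and 39.5%, and the neurogenic and Notch list and the axon guidance list the largest shares of lower members, 42.1% and 21.9%. The lists were written with earlier results of these data known, so a large share describes the list and is no independent evidence. In the lists of thyroid hormone and skeletal muscle a single gene was lower and 0 were higher, and in the blood list 0 of 11 gene models followed the pattern.

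**Figure D2:**
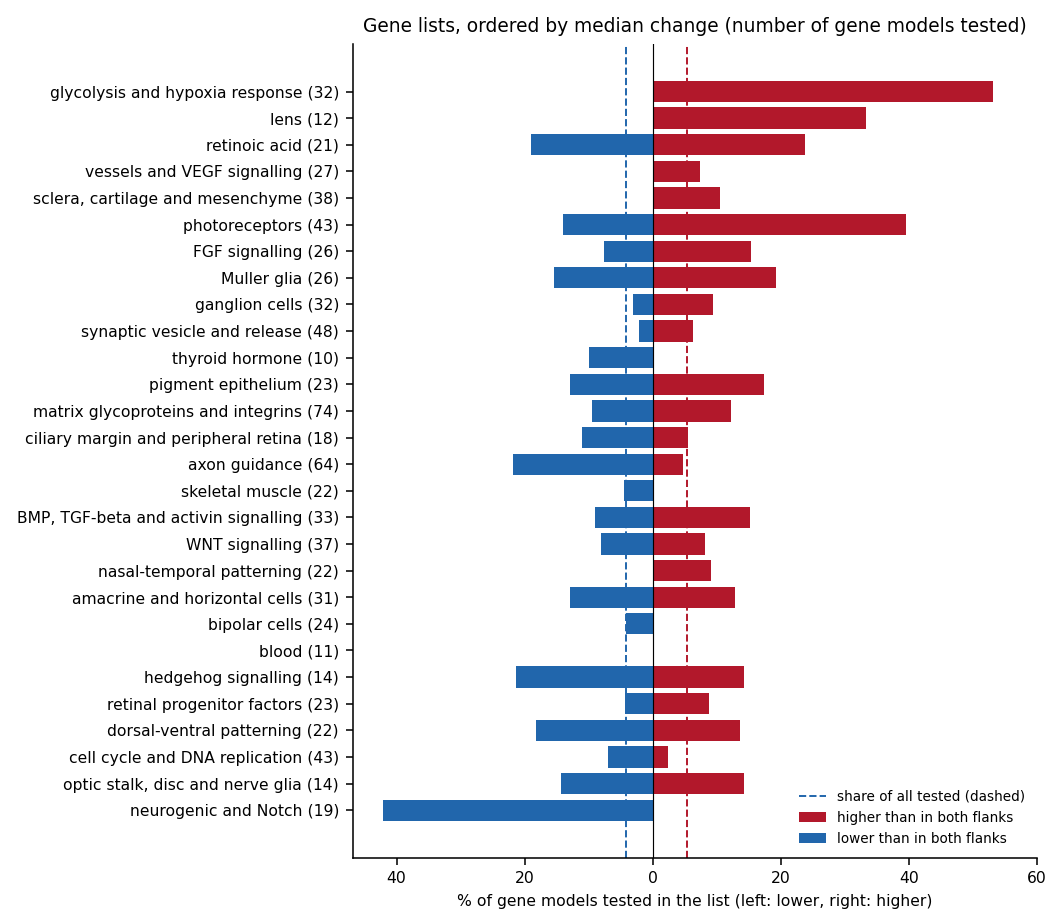
Share of the gene models tested in each of 28 gene lists that were higher (red, to the right) or lower (blue, to the left) in central than in both flanks, with the lists ordered by median log2 fold change and the number tested in parentheses. Dashed lines mark the shares over all gene models tested, 5.36% higher and 4.16% lower. The glycolysis and hypoxia list has the longest red bar (53.1%) and the neurogenic and Notch list the longest blue bar (42.1%).

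The gene furthest above both flanks was CYP26C1 (ANOSAT007723), which encodes a retinoic acid hydroxylase that clears retinoic acid from tissue. Its level was 51.2, 59.9, 40.6, 40.98 and 28.4 CPM in the central libraries, against 0.107, 0.167, 0.0985, 0.05298 and 0.238 CPM in the nasal and 0.3296, 0.677, 0.438, 0.589 and 0.744 CPM in the temporal libraries. The groups were far apart, with a log2 fold change of 7.23 ± 0.19 and adjusted p = 3.12e-11 against nasal and 1.65e-10 against temporal in edgeR's quasi-likelihood test. Temporal tissue held more than nasal tissue (nasal minus temporal -2.005 ± 0.41, adjusted p = 0.00333). CYP26A1 (ANOSAT007724), another enzyme of this family, was chosen after its values were seen and did not follow the pattern, at 0.717 ± 0.416 CPM in central, 0.957 ± 0.413 CPM in nasal and 9.37 ± 2.11 CPM in temporal tissue. It was lower in central than in temporal tissue (adjusted p = 3.04e-05), while its difference from nasal tissue did not pass (adjusted p = 0.554).

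PAX2 (ANOSAT008035) encodes a paired-box transcription factor of the optic stalk and optic disc. It was read at 22.7, 24.7, 31.1, 29.1 and 37.7 CPM in the central libraries, against 0.215, 0.0835, 0.148, 0.318 and 0.159 CPM in the nasal and 0.396, 0.319, 0.375, 0.272 and 0.827 CPM in the temporal libraries. All central libraries lay far above the highest flanking library, temporal replicate 5. Its log2 fold change was 6.68 ± 0.19 (adjusted p = 5.30e-11 against nasal and 2.16e-10 against temporal). PMP2 (ANOSAT011228), a fatty acid-binding protein known from peripheral myelin, had 233, 288, 158, 55.9 and 109.5 CPM in the central libraries, against 1.61, 1.92, 0.887, 1.43 and 0.437 CPM in the nasal and 13.3, 9.56, 11.8, 13.6 and 13.3 CPM in the temporal libraries. All central libraries lay above all flanking ones, with a log2 fold change of 5.29 ± 0.26, although the central values themselves ran over a wide range. Both genes belong to a list of 16 genes of optic stalk, disc and nerve glia. Of 14 gene models tested 2 were higher and 2 lower than in both flanks (14.3% each, against 5.36% and 4.16% of all gene models). The median was -0.44. Leaving out central replicate 4 gave 2 higher and 4 lower, with a median of -0.23. Summed over the list, central libraries had 463 to 679 CPM, nasal 329 to 437 CPM and temporal 530 to 688 CPM. The labels do not say whether the central tissue held the optic disc. Its part in these and the other differences, those of glial genes included, was not tested.

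**Figure D3:**
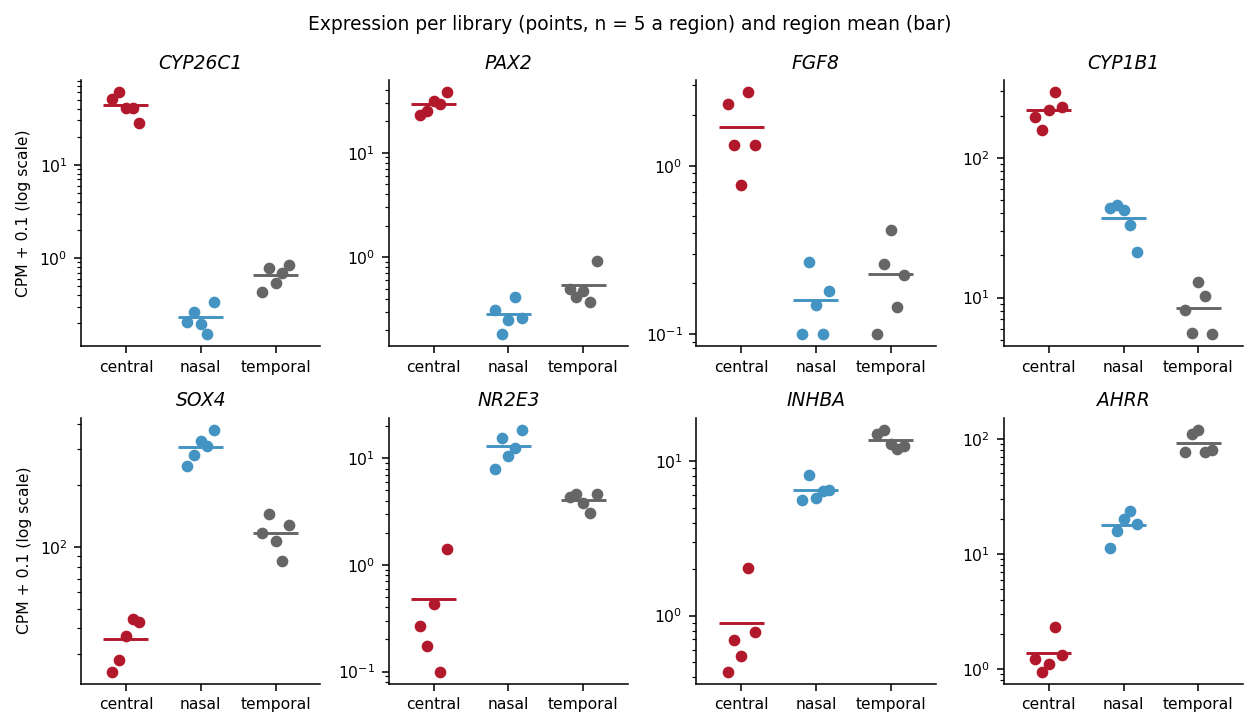
CPM of 8 gene models in each library, on a log axis with 0.1 added so that 0 can be drawn. Points are libraries, bars are region means (n = 5). In CYP26C1, PAX2, FGF8 and CYP1B1 every central library lies above the 10 flanking libraries, and in SOX4, NR2E3, INHBA and AHRR every central library lies below them.

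Retinoic acid acts as a diffusible signal whose level is set by synthesis, transport and breakdown. In the list of genes of this pathway 5 of 21 gene models tested were higher than in both flanks (23.8%) and 4 were lower (19%). Over all gene models 5.36% were higher and 4.16% lower. The list median was 0.30, and without the replicate block 4 of the 5 and 3 of the 4 kept the call. Leaving out central replicate 4 gave 7 higher and 4 lower. CRABP1 (ANOSAT019021) encodes a protein that binds retinoic acid in the cytoplasm. Its levels were 269, 257, 176, 119.9 and 156 CPM in the central libraries, against 41.5, 34.4, 30.3, 19.2 and 34 CPM in the nasal and 75.9, 103, 78.4, 52.7 and 61.6 CPM in the temporal libraries. The central libraries were all above the flanking ones, nasal tissue was lowest, and the log2 fold change was 1.98 ± 0.09 (adjusted p = 3.91e-10 against nasal and 7.28e-07 against temporal). CRABP2 (ANOSAT019022), a close relative with the next identifier in the table, had 176 ± 77.7 CPM in central, 27.8 ± 8.23 CPM in nasal and 70.3 ± 25.02 CPM in temporal tissue and a log2 fold change of 1.93 ± 0.11. Central replicate 4 was its lowest central library and lay within the range of temporal tissue, as CRABP1 was also lowest there among the central libraries. Whether reads of these near relatives were shared in counting was not tested.

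RBP4 (ANOSAT004707), the carrier of retinol in blood, had 1683 ± 232 CPM in central, 1186 ± 76.7 CPM in nasal and 1222 ± 122 CPM in temporal tissue, a log2 fold change of 0.48 ± 0.07 with all central libraries above all flanking ones. STRA6 (ANOSAT019077), the receptor that takes up retinol from this carrier, averaged 73.98 ± 25.7 CPM in central, 35.02 ± 8.08 CPM in nasal and 46.6 ± 9.81 CPM in temporal tissue. Its log2 fold change of 0.84 ± 0.11 passed with the replicate block but not without (larger adjusted p = 0.0827), and its libraries overlapped. ALDH1A1 (ANOSAT003857) makes retinoic acid from retinaldehyde. It stood at 9.52, 12.02, 8.83, 11.4 and 10.99 CPM in the central libraries, against 15.6, 18.6, 24.3, 29.2 and 27.4 CPM in the nasal and 76.9, 39.4, 26.3, 27.5 and 21.7 CPM in the temporal libraries. Every central library was below every flanking one, with a log2 fold change of -1.46 ± 0.26 (adjusted p = 0.00687 against nasal and 0.000651 against temporal), but without central replicate 4 the call was lost at an adjusted p of 0.0512. RDH10 (ANOSAT009576), which makes retinaldehyde, was at 7.57 ± 1.38 CPM in central, 12.9 ± 1.51 CPM in nasal and 13.02 ± 2.09 CPM in temporal tissue, a log2 fold change of -0.78 ± 0.13, and its other gene model, ANOSAT011197, did not follow the pattern. RARB (ANOSAT014903), a retinoic acid receptor that is itself a target of the signal, was at 13.2 ± 2.996 CPM in central, 19.5 ± 1.63 CPM in nasal and 21.99 ± 0.943 CPM in temporal tissue, a log2 fold change of -0.67 ± 0.12.

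CYP1B1 (ANOSAT002696) is a cytochrome P450 that can oxidise retinol and a known target of the aryl hydrocarbon receptor. It reached 195, 158, 222, 294 and 233 CPM in the central libraries, against 43.3, 45.5, 42.1, 33.2 and 21.2 CPM in the nasal and 7.98, 5.46, 12.9, 10.2 and 5.37 CPM in the temporal libraries. All central libraries exceeded all flanking libraries, and here temporal tissue was the lowest (log2 fold change 3.68 ± 0.17; nasal minus temporal 2.19 ± 0.22, adjusted p = 8.90e-06). AHRR (ANOSAT014691) is the repressor of the same receptor. It ran opposite, at 1.11, 0.854, 0.999, 2.25 and 1.22 CPM in the central libraries, against 11.1, 15.6, 19.96, 23.4 and 18.2 CPM in the nasal and 76.8, 109, 119.8, 76.5 and 79.7 CPM in the temporal libraries. Its central libraries were all below 3 CPM and temporal tissue was highest, a log2 fold change of -5.01 ± 0.21 (adjusted p = 7.04e-09 against nasal and 1.65e-10 against temporal). TIPARP (ANOSAT007170), another gene known to be induced by that receptor, had 8.73 ± 1.32 CPM in central, 34.4 ± 3.69 CPM in nasal and 59.8 ± 6.95 CPM in temporal tissue and a log2 fold change of -2.39 ± 0.10, again with no overlap and with temporal tissue highest. A list of genes for this receptor was not made, and these 3 were named by size of change alone.

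FGF8 (ANOSAT007480) is a secreted growth factor. It was read at a low level, at 2.23, 1.23, 0.666, 2.63 and 1.22 CPM in the central libraries, against 0, 0.167, 0.0493, 0 and 0.0794 CPM in the nasal and 0, 0.159, 0.313, 0.0453 and 0.124 CPM in the temporal libraries. All central libraries lay above all flanking ones, and 3 of these had no read. The log2 fold change was 4.08 ± 0.65 (adjusted p = 0.00084 against nasal and 0.00692 against temporal), and without any 1 library it stayed between 3.52 and 4.62. Genes that respond to FGF signals moved less. ETV5 (ANOSAT007366), a transcription factor induced by FGF, was at 106 ± 8.62 CPM in central, 60.3 ± 7.58 CPM in nasal and 74.2 ± 7.63 CPM in temporal tissue, a log2 fold change of 0.67 ± 0.06 without overlap. SPRY2 (ANOSAT008194), a feedback inhibitor of the pathway, was at 48.2 ± 11.1 CPM in central, 27.4 ± 2.01 CPM in nasal and 34.8 ± 4.08 CPM in temporal tissue, and its call was lost without the replicate block (adjusted p = 0.0515) and without central replicate 5 (0.0565). FGFR1 (ANOSAT017552), a receptor, was lower, at 12.6 ± 4.695 CPM in central, 22.4 ± 4.73 CPM in nasal and 27.3 ± 1.38 CPM in temporal tissue (log2 fold change -1.02 ± 0.15). In the whole list of 26 gene models 4 were higher (15.4%) and 2 lower (7.69%), against 5.36% and 4.16% of all gene models. The median was 0.14, and without the replicate block 2 of the 4 and 1 of the 2 kept the call. Without central replicate 4 the counts were 4 and 3, and the median was 0.03.

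Members of the activin branch of TGF-beta signalling differed widely between the regions. FST (ANOSAT003492) encodes follistatin, a secreted protein that binds and blocks activin. Counts gave 306, 244, 280.0, 276 and 293 CPM in the central libraries, against 26.2, 30.5, 26.5, 37.8 and 26.1 CPM in the nasal and 75.1, 88.1, 96.3, 121 and 98.2 CPM in the temporal libraries. Central libraries were above all others by a wide margin and nasal tissue was lowest, with a log2 fold change of 2.42 ± 0.09 (adjusted p = 3.12e-11 against nasal and 8.04e-08 against temporal). The subunits from which activin is built were lower. INHBA (ANOSAT014742) was at 0.334, 0.594, 0.444, 1.92 and 0.684 CPM in the central libraries, against 5.53, 8.06, 5.72, 6.304 and 6.39 CPM in the nasal and 14.8, 15.9, 12.8, 11.9 and 12.4 CPM in the temporal libraries, and the highest central value, in replicate 4, was still below every flanking library. Its log2 fold change was -3.65 ± 0.30. INHBB (ANOSAT001272), which encodes the other subunit, was at 23.4 ± 6.07 CPM in central, 68.9 ± 4.16 CPM in nasal and 56.3 ± 6.66 CPM in temporal tissue, a log2 fold change of -1.42 ± 0.13, also without overlap.

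BMP2 (ANOSAT001912) is a ligand of the BMP branch. Its level was higher in the central region, at 23.9, 27.2, 28.1, 38.7 and 31.4 CPM in the central libraries, against 8.54, 9.82, 8.92, 8.11 and 9.49 CPM in the nasal and 10.5, 15.2, 12.4, 17.7 and 14.1 CPM in the temporal libraries. The groups did not overlap (log2 fold change 1.41 ± 0.10, adjusted p = 9.19e-08 against nasal and 2.22e-05 against temporal). VWC2 (ANOSAT014706), a secreted binder of BMP, was at 98.3 ± 9.22 CPM in central, 49.2 ± 3.53 CPM in nasal and 58.4 ± 4.49 CPM in temporal tissue, a log2 fold change of 0.87 ± 0.06. Of the 33 gene models of the BMP, TGF-beta and activin list 5 were higher (15.2%) and 3 lower (9.09%), with a median of -0.06. Over all gene models 5.36% were higher and 4.16% lower. The counts of the list became 6 and 4 without central replicate 4, with a median of -0.19.

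Genes of the WNT and hedgehog pathways changed in both directions. Of 37 WNT gene models 3 were higher and 3 lower (8.11% each, against 5.36% and 4.16% of all gene models), and without central replicate 4 these were 4 and 7. Of 14 hedgehog gene models 2 were higher (14.3%) and 3 lower (21.4%), with or without that library. WIF1 (ANOSAT012322), a secreted WNT inhibitor, was at 35.8 ± 7.52 CPM in central, 23.9 ± 3.89 CPM in nasal and 20.3 ± 4.53 CPM in temporal tissue, with a log2 fold change of 0.70 ± 0.11. RSPO2 (ANOSAT011348), a secreted enhancer of WNT signals, was at 2.81 ± 0.712 CPM in central, 0.993 ± 0.262 CPM in nasal and 0.991 ± 0.252 CPM in temporal tissue, 2.83-fold over the mean of the flanks (standard error 0.30 on the log2 scale), and its call was lost without central replicate 5 (adjusted p = 0.0598). LGR4 (ANOSAT000777), a receptor for R-spondins, was lower at 34.9 ± 5.28 CPM in central, 51.9 ± 6.62 CPM in nasal and 48.4 ± 4.3 CPM in temporal tissue, a log2 fold change of -0.52 ± 0.08. GLI2 (ANOSAT001273), a transcription factor that relays hedgehog signals, was higher at 30.01 ± 5.77 CPM in central, 13.4 ± 2.17 CPM in nasal and 18.2 ± 1.02 CPM in temporal tissue, with a log2 fold change of 0.93 ± 0.10. GLI3 (ANOSAT014741), its relative with a mainly repressing role, was lower at 10.9 ± 1.73 CPM in central, 16.2 ± 1.196 CPM in nasal and 22.4 ± 2.08 CPM in temporal tissue (-0.82 ± 0.10), and so was the receptor and target gene PTCH1 (ANOSAT003802), at 84.8 ± 11.5 CPM in central, 109 ± 15.3 CPM in nasal and 116 ± 7.16 CPM in temporal tissue (-0.41 ± 0.06).

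Genes that pattern the eye along its other axes were also set against the pattern. Of 22 gene models of dorsal-ventral patterning 3 were higher (13.6%) and 4 lower (18.2%), or 3 and 5 without central replicate 4. Of 22 gene models of nasal-temporal patterning 2 were higher (9.09%), CRABP1 and the ephrin receptor gene EPHA7, and 0 lower. Of 10 gene models of the thyroid hormone list 1 was lower (10%) and 0 higher. Over all gene models 5.36% were higher and 4.16% lower. EPHA7 (ANOSAT002226) was at 43.3 ± 5.16 CPM in central, 24.9 ± 2.99 CPM in nasal and 36.01 ± 4.22 CPM in temporal tissue (0.53 ± 0.07), with overlap. EFNB2 (ANOSAT008231), an ephrin of the dorsal-ventral list, was lower at 37.4 ± 5.49 CPM in central, 55.05 ± 6.63 CPM in nasal and 58.3 ± 8.61 CPM in temporal tissue (-0.60 ± 0.11), and its central libraries lay below all others.

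ZIC1 and ZIC2 encode zinc finger factors known from the retinal margin and the dorsal neural tube. ZIC2 (ANOSAT008214) was at 0.141 ± 0.151 CPM in central, 3.498 ± 0.957 CPM in nasal and 3.41 ± 1.81 CPM in temporal tissue, a log2 fold change of -4.63 ± 0.52 without overlap. ZIC1 (ANOSAT007219) was at 1.7 ± 1.23 CPM in central, 10.9 ± 2.28 CPM in nasal and 6.89 ± 4.23 CPM in temporal tissue (-2.41 ± 0.47), and its call was lost without central replicate 2 (adjusted p = 0.0597), central replicate 5 (0.0509) or temporal replicate 2 (0.0767). In central replicate 4 both genes had 0 reads, while ZIC1 was at 1.026 to 3.175 CPM in the other central libraries. That library had reads in fewer gene models than the others, so its counts of 0 set no limit on the level of these genes. The list of 18 gene models of the ciliary margin and peripheral retina held 2 lower members, ZIC1 and ZIC2, and 1 higher member, RBP4. Their shares were 11.1% and 5.56%, against 4.16% and 5.36% of all gene models, and the median was -0.03. Leaving out central replicate 4 gave 3 lower and 2 higher members.

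Photoreceptor genes were the marker list with the most members in the pattern. Of 43 gene models tested, 17 were higher than in both flanks (39.5%) and 6 were lower (14%), against 5.36% and 4.16% of all gene models, with a median of 0.25. The 17 included ANOSAT019162, ANOSAT019163 and ANOSAT019164 of ARR3 and ANOSAT000570 and ANOSAT002889 of PRPH2, so these symbols counted more than once. Without the replicate block 11 of the 17 and 3 of the 6 kept the call, and the same numbers kept it in each refit gene by gene, that is under the other scalings, filters and tools and with each library left out in turn. Without central replicate 4 the counts were 15 and 6. The summed level of the list was 18690 to 20220 CPM in central, 14780 to 16790 CPM in nasal and 15320 to 19420 CPM in temporal libraries. RCVRN (ANOSAT014006), the member with the most reads, which encodes the calcium sensor recoverin, was at 7038 ± 791 CPM in central, 4985 ± 775 CPM in nasal and 6288 ± 1210 CPM in temporal tissue and did not follow the pattern (adjusted p = 0.108 against temporal), except in limma-voom (0.00976).

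Cone opsins, the pigments of daylight vision, were higher in the central region. OPN1LW (ANOSAT004388) is the long-wavelength pigment. Its model had 1271, 1503, 1271, 1422 and 1239 CPM in the central libraries, against 729, 635, 609, 717 and 617 CPM in the nasal and 987, 1013, 951, 1053 and 917 CPM in the temporal libraries. Central libraries lay above temporal ones and these above nasal ones, with no overlap between the 3 regions (log2 fold change 0.73 ± 0.05, adjusted p = 9.35e-09 against nasal and 0.000148 against temporal). RH2 (ANOSAT009929) encodes a cone pigment for green light in reptiles. It was not on the list, was chosen after its values were seen and had 439, 544, 497, 573 and 512 CPM in the central libraries, against 84.7, 137, 116, 137 and 118 CPM in the nasal and 199, 214, 255, 253 and 229 CPM in the temporal libraries. Its order was the same and its change larger, at 1.64 ± 0.06. OPN1SW (ANOSAT011689), the short-wavelength pigment, was at 108 ± 36.2 CPM in central, 31.6 ± 5.83 CPM in nasal and 62.8 ± 7.61 CPM in temporal tissue, a log2 fold change of 1.25 ± 0.14 with an overlap between central replicate 4 and the highest temporal library. The symbol OPN1LW was carried by 4 gene models, and ANOSAT020012, the other one tested here, did not follow the pattern.

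Genes of the cone light response did not all follow the pattern. GNAT2 (ANOSAT009999), the cone transducin, was at 916 ± 162 CPM in central, 555 ± 78.8 CPM in nasal and 604 ± 75.4 CPM in temporal tissue, a log2 fold change of 0.65 ± 0.06. PDE6H (ANOSAT012155), a subunit of the cone phosphodiesterase, was at 728 ± 83.7 CPM in central, 486 ± 70.03 CPM in nasal and 489.6 ± 30.1 CPM in temporal tissue (0.58 ± 0.07). Neither overlapped with the flanks. CNGA3, PDE6C and RBP3 were chosen after their values were seen. CNGA3 (ANOSAT008330), a subunit of the cone channel, had a log2 fold change of -0.07 ± 0.07 and passed against neither flank. RBP3 (ANOSAT008092), a retinoid carrier between photoreceptors and pigment epithelium, had a log2 fold change of -0.15 ± 0.08 and was lower in central than in temporal tissue only (adjusted p = 0.00697, against 0.478 for nasal). PDE6C (ANOSAT007730), the catalytic subunit of the cone phosphodiesterase, was higher by 0.25 ± 0.06, but lost the call without the replicate block (adjusted p = 0.172) and without central replicate 4 (0.0633) or central replicate 5 (0.126), among other libraries. GUCA1A ANOSAT009808 is a calcium sensor that regulates guanylate cyclase. This model had 33.2, 34.5, 32.1, 35.98 and 35.5 CPM in the central libraries, against 2.52, 1.59, 2.07, 1.43 and 1.19 CPM in the nasal and 9.36, 8.84, 13.3, 12.7 and 9.26 CPM in the temporal libraries. The 5 central values were close together, and the log2 fold change was 3.003 ± 0.14 (adjusted p = 3.39e-10 against nasal and 3.18e-06 against temporal). The neighbouring model GUCA1B (ANOSAT009809) was at 18.5 ± 5.91 CPM in central, 0.95 ± 0.399 CPM in nasal and 6.29 ± 1.48 CPM in temporal tissue (2.90 ± 0.24), with central replicate 4 within the range of temporal tissue. Another gene model with the symbol GUCA1A, ANOSAT011655, ran the other way, at 6.13 ± 1.14 CPM in central, 9.95 ± 4.396 CPM in nasal and 44.4 ± 7.697 CPM in temporal tissue, with temporal tissue highest. Its call was lost without the replicate block (adjusted p = 0.0781) and without central replicate 3 (0.0617), central replicate 5 (0.0789), nasal replicate 3 (0.0573), nasal replicate 4 (0.071) or nasal replicate 5 (0.0819). PRDM1 (ANOSAT002254), a factor of early photoreceptors, was higher at 59.8 ± 8.09 CPM in central, 28.8 ± 1.54 CPM in nasal and 41.6 ± 6.19 CPM in temporal tissue, a log2 fold change of 0.78 ± 0.07.

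Rods are the photoreceptors of dim light, and of the 5 rod genes described here 3 were lower, 1 was higher and 1 did not follow the pattern. NR2E3 (ANOSAT018897) is a nuclear receptor that directs rod fate in mammals. It had 0.167, 0.0742, 0.333, 0 and 1.32 CPM in the central libraries, against 7.84, 15.4, 10.3, 12.4 and 18.5 CPM in the nasal and 4.22, 4.54, 3.75, 2.94 and 4.55 CPM in the temporal libraries. Every central library was below every flanking library and nasal tissue was highest (log2 fold change -4.41 ± 0.45, adjusted p = 7.25e-07 against nasal and 0.000114 against temporal). Without central replicate 5, the central library where it was highest, the log2 fold change was -5.52. The other 4 rod genes were chosen after their values were seen. PDE6G (ANOSAT005021), a subunit of the rod phosphodiesterase, was lower at 0.931 ± 0.624 CPM in central, 5.71 ± 2.01 CPM in nasal and 3.63 ± 0.431 CPM in temporal tissue, a log2 fold change of -2.41 ± 0.38 without overlap. GNAT1 (ANOSAT005721), the rod transducin, was at 2.45 ± 2.89 CPM in central, 6.83 ± 1.23 CPM in nasal and 6.18 ± 1.04 CPM in temporal tissue, and its larger adjusted p of 0.0393 did not hold without the replicate block (0.181), without the filter on low counts (0.0835) or without central replicate 1 (0.117), 2 (0.0874), 3 (0.119) or 5 (0.0544), nasal replicate 3 (0.0523) or temporal replicate 1 (0.0802), 2 (0.0866), 3 (0.0937), 4 (0.0518) or 5 (0.0856). Central replicate 4 was the highest central library for GNAT1, at 7.247 CPM against 0.2969 to 3.078 CPM in the others. Without it the call of GNAT1 held, and its log2 fold change went from -1.838 to -2.534. PDE6B (ANOSAT004706), another phosphodiesterase subunit, was at 1.03 ± 0.736 CPM in central, 2.17 ± 0.763 CPM in nasal and 1.98 ± 0.488 CPM in temporal tissue and did not pass (adjusted p = 0.102 against temporal), except in DESeq2 (0.0432). SAG (ANOSAT007402), the rod arrestin, was higher in the central region, at 22.1 ± 4.299 CPM in central, 7.69 ± 1.77 CPM in nasal and 12.03 ± 3.99 CPM in temporal tissue, a log2 fold change of 1.19 ± 0.17, and its lowest central library overlapped with temporal tissue. IMPG2 (ANOSAT008767), a proteoglycan of the matrix around both rods and cones, was lower, at 284 ± 87.6 CPM in central, 988 ± 296 CPM in nasal and 543 ± 83.6 CPM in temporal tissue (-1.39 ± 0.12).

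**Figure D4:**
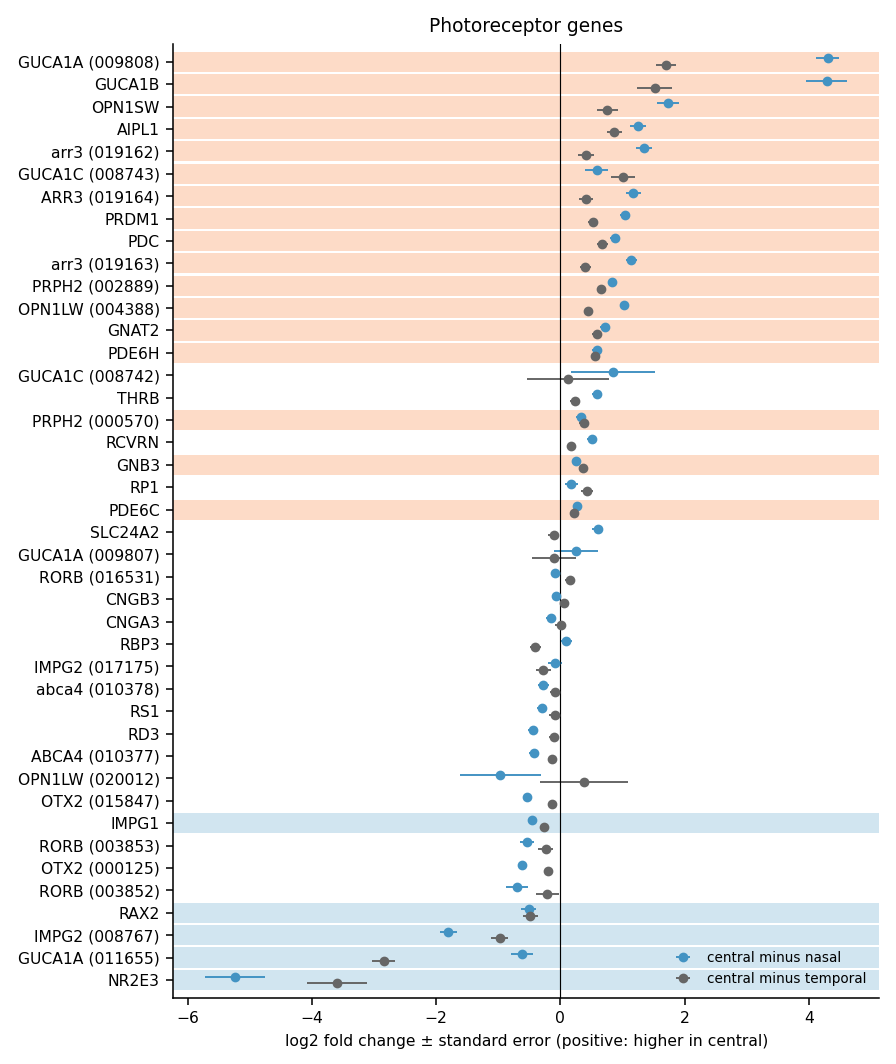
Log2 fold change ± approximate standard error of 42 of the photoreceptor gene models tested, central minus nasal (blue) and central minus temporal (grey). The end of the identifier is given where a symbol is on several gene models. Pale red shading marks the 17 gene models higher in central than in both flanks and pale blue shading 5 lower ones.

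Glycolysis and the response to low oxygen gave the highest share of any list. Of 32 gene models tested 17 were higher than in both flanks (53.1%) and 0 lower, against 5.36% and 4.16% of all gene models. The list median was 0.71, and all 17 kept the call in each refit gene by gene. The summed level of the list was 16220 to 19700 CPM in central, 8064 to 9114 CPM in nasal and 10950 to 12570 CPM in temporal libraries, with no overlap between the regions. Without central replicate 4 the count was 21 of 32, with a median of 0.74. HIF1A (ANOSAT000161) is the oxygen-sensitive transcription factor. It reached 1681, 1453, 1478, 1093 and 1049 CPM in the central libraries, against 279.8, 210.4, 244, 249.8 and 219.6 CPM in the nasal and 523, 511, 561, 537 and 474 CPM in the temporal libraries. Its central libraries were all above the flanking ones, with nasal tissue lowest (log2 fold change 1.92 ± 0.08, adjusted p = 1.02e-10 against nasal and 9.58e-08 against temporal).

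Enzymes were higher along the length of the pathway. HK2 ANOSAT017843 is a hexokinase that takes the first step from glucose. The model had 101, 104, 77.05, 62.3 and 48.4 CPM in the central libraries, against 5.69, 2.298, 1.77, 2.28 and 2.62 CPM in the nasal and 16.02, 18.4, 18.9, 22.5 and 17.4 CPM in the temporal libraries. The groups were separate, and the log2 fold change of 3.38 ± 0.18 was the largest of the list (adjusted p = 2.11e-09 against nasal and 9.80e-06 against temporal). GPI (ANOSAT018097), of the next step, was at 2033 ± 268 CPM in central, 562 ± 149 CPM in nasal and 904 ± 51.4 CPM in temporal tissue, a log2 fold change of 1.51 ± 0.10. ALDOC (ANOSAT019781), an aldolase of neural tissue, was at 1467 ± 137 CPM in central, 484 ± 64.02 CPM in nasal and 856 ± 98.2 CPM in temporal tissue (1.19 ± 0.08). GAPDH (ANOSAT004066), a common reference gene, was at 331 ± 66.4 CPM in central, 138 ± 13.6 CPM in nasal and 200.4 ± 21.9 CPM in temporal tissue (0.98 ± 0.07), and was thus not constant across these regions. PKM (ANOSAT018890), pyruvate kinase, was at 118 ± 20.02 CPM in central, 39.8 ± 6.48 CPM in nasal and 68.9 ± 7.5 CPM in temporal tissue (1.16 ± 0.08).

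LDHA (ANOSAT000895) turns pyruvate into lactate. It was counted at 1880, 2549, 1781, 2433 and 2079 CPM in the central libraries, against 439.5, 560.5, 515, 606 and 627 CPM in the nasal and 838, 889, 809, 1171 and 969 CPM in the temporal libraries. All central libraries exceeded all flanking ones (log2 fold change 1.58 ± 0.06, adjusted p = 1.53e-10 against nasal and 6.98e-08 against temporal). Transport on both sides of the pathway changed with it. SLC2A1 (ANOSAT021206), a glucose transporter, was at 1492 ± 81.6 CPM in central, 836 ± 87.4 CPM in nasal and 1072 ± 67.9 CPM in temporal tissue, a log2 fold change of 0.66 ± 0.05. The lactate transporters SLC16A1 and SLC16A3 were chosen after their values were seen. SLC16A1 (ANOSAT009791) was at 506 ± 107 CPM in central, 122 ± 12.7 CPM in nasal and 253 ± 32.7 CPM in temporal tissue (1.51 ± 0.09). SLC16A3 (ANOSAT005302) was at 403 ± 44.3 CPM in central, 113 ± 21.03 CPM in nasal and 213 ± 37.9 CPM in temporal tissue (1.39 ± 0.08). ENO2 (ANOSAT004039), the enolase of neurons and likewise chosen after its values were seen, was at 2586 ± 209.9 CPM in central, 674 ± 65.02 CPM in nasal and 1307 ± 158 CPM in temporal tissue (1.47 ± 0.06). All libraries of the central region lay above all 10 flanking libraries for each of these 4 genes.

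VEGFA (ANOSAT002723) is the main growth factor of blood vessels. Its level stood at 239.9, 238, 295, 248 and 298 CPM in the central libraries, against 95.8, 137, 152, 159 and 113 CPM in the nasal and 108, 105, 145, 162 and 196 CPM in the temporal libraries. The central libraries were all above the flanks, which did not differ from each other beyond their spread (log2 fold change 0.96 ± 0.11, adjusted p = 2.03e-05 against nasal and 0.000171 against temporal). NDRG1 (ANOSAT011432), a gene commonly induced by low oxygen, was at 1901 ± 244 CPM in central, 2090 ± 191 CPM in nasal and 2111 ± 242 CPM in temporal tissue and did not pass in either comparison with edgeR's test (adjusted p = 0.162 against nasal and 0.192 against temporal), while limma-voom called it lower (0.0227). Of 27 gene models of the list of vessels and VEGF signalling 2 were higher, VEGFA and NRP2, and 0 were lower. The higher share was 7.41%, against 5.36% of all gene models, and the median was 0.28.

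**Figure D5:**
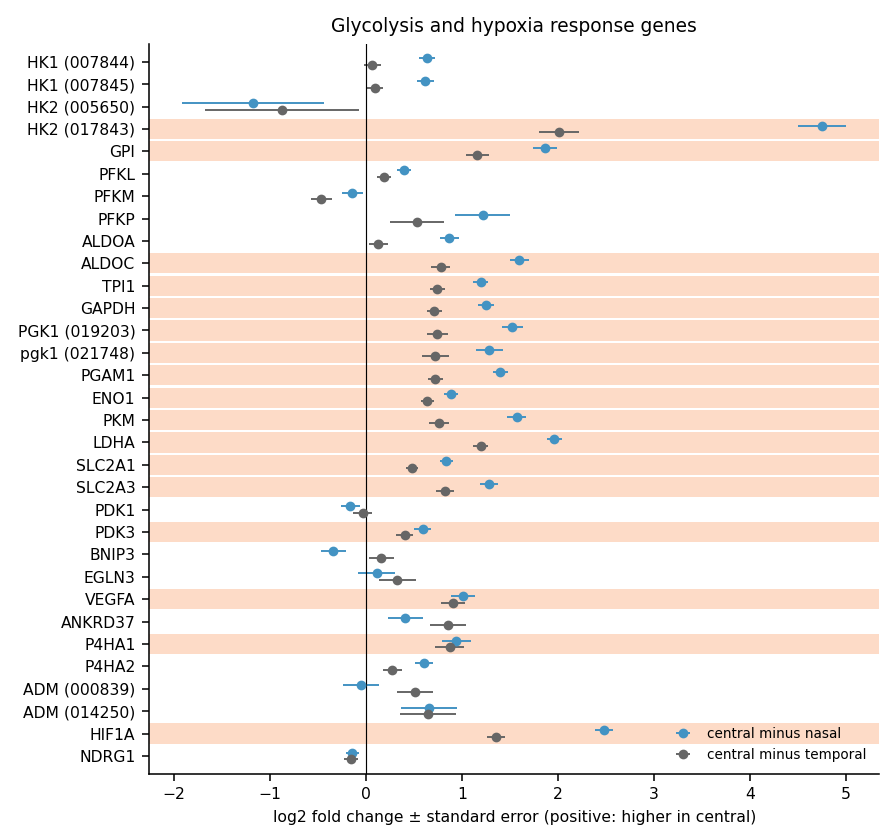
Log2 fold change ± approximate standard error of the 32 gene models of the glycolysis and hypoxia list. Central minus nasal is drawn in blue and central minus temporal in grey. Shading marks the 17 gene models that were higher in central than in both flanks, among them HK2 ANOSAT017843, GPI, LDHA and HIF1A.

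Neurogenic and Notch genes, which act while progenitors leave the cell cycle and become neurons, were the list with the largest share of lower members. Of 19 gene models tested 8 were lower than in both flanks (42.1%) and 0 higher, against 4.16% and 5.36% of all gene models. The list median was -0.56, and without central replicate 4 the counts were the same. Without the replicate block 4 of the 8 kept the call, and 3 did so in each refit gene by gene. SOX4 (ANOSAT010914) is a factor of newborn neurons. Reads came to 24.5, 27.8, 36.8, 44.6 and 42.7 CPM in the central libraries, against 247, 281, 329, 312 and 374 CPM in the nasal and 117, 145, 106, 85.3 and 128 CPM in the temporal libraries. The groups were separate and nasal tissue was highest (log2 fold change -2.44 ± 0.14, adjusted p = 1.50e-09 against nasal and 1.72e-06 against temporal). NEUROD1 (ANOSAT001545), a factor of young photoreceptors and amacrine cells, was at 52.2 ± 4.83 CPM in central, 125 ± 14.5 CPM in nasal and 83.6 ± 10.2 CPM in temporal tissue, a log2 fold change of -0.97 ± 0.06 without overlap. LFNG (ANOSAT017443), which modifies Notch, was at 7.18 ± 3.34 CPM in central, 20.8 ± 2.74 CPM in nasal and 15.2 ± 1.52 CPM in temporal tissue (-1.38 ± 0.25), without overlap. DLL1 (ANOSAT002569), a Notch ligand, was at 11.7 ± 3.34 CPM in central, 24.03 ± 4.57 CPM in nasal and 17.6 ± 2.76 CPM in temporal tissue (-0.84 ± 0.11), with the call of DLL1 lost without the replicate block (adjusted p = 0.0947). NEUROD4 (ANOSAT004777), the member with the most reads, was at 157 ± 12.9 CPM in central, 296 ± 25.3 CPM in nasal and 173 ± 18.96 CPM in temporal tissue and did not pass against temporal tissue (adjusted p = 0.24).

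Few genes of progenitors and of the cell cycle followed the pattern, at shares near those over all gene models. Of 23 gene models of progenitor factors 2 were higher (8.7%) and 1 lower (4.35%), with a median of -0.22. Of 43 gene models of cell cycle and DNA replication 1 was higher (2.33%) and 3 lower (6.98%), with a median of -0.26. Over all gene models 5.36% were higher and 4.16% lower. Leaving out central replicate 4 gave 3 higher and 2 lower progenitor factors and did not change the cell cycle counts. With all libraries, HMGA2 ANOSAT012318 (1.09 ± 0.18) and SOX2 (ANOSAT007072, 0.39 ± 0.07) were the higher progenitor factors and SFRP2 the lower. SFRP2 (ANOSAT013021), a WNT binder made by progenitors, was at 75.2 ± 32.9 CPM in central, 108 ± 28.8 CPM in nasal and 116 ± 16.1 CPM in temporal tissue and passed with the replicate block but not without (adjusted p = 0.151). CDC6 (ANOSAT014412), a licensing factor of DNA replication, was higher at 15.2 ± 4.26 CPM in central, 5.38 ± 1.55 CPM in nasal and 8.38 ± 1.62 CPM in temporal tissue (1.17 ± 0.13), while CENPF (ANOSAT021094), a protein of the kinetochore, was lower at 15.2 ± 2.22 CPM in central, 23.9 ± 6.86 CPM in nasal and 25.4 ± 0.865 CPM in temporal tissue (-0.68 ± 0.14). The other lower cell cycle gene models were KIF23 ANOSAT018800 (-1.37 ± 0.32) and TOP2A (ANOSAT014409, -0.98 ± 0.26). Further gene models of CENPF and SFRP2, ANOSAT002851 (0.13 ± 0.29) and ANOSAT009138 (-0.49 ± 0.35), did not follow the pattern. Neither did HMGA2 ANOSAT006802 (0.02 ± 0.09) or KIF23 ANOSAT010409 (-0.949 ± 0.515).

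Markers of inner retinal neurons went in both directions. SST (ANOSAT006953) encodes the neuropeptide somatostatin of amacrine cells. It amounted to 89.01, 129, 88.5, 72.7 and 54.6 CPM in the central libraries, against 1.61, 0.543, 1.63, 0.901 and 0.834 CPM in the nasal and 18.98, 29.4, 39.3, 22.6 and 19.7 CPM in the temporal libraries. Central libraries lay above temporal ones and these above nasal ones without overlap, and the log2 fold change was 4.02 ± 0.17 (adjusted p = 1.07e-10 against nasal and 8.80e-06 against temporal). TAC1 (ANOSAT015041), the precursor of substance P, was at 298 ± 51.4 CPM in central, 84.1 ± 8.095 CPM in nasal and 115 ± 11.01 CPM in temporal tissue, a log2 fold change of 1.59 ± 0.07. CALB2 (ANOSAT018124), the calcium binder calretinin, was lower by a small amount, at 238 ± 21.6 CPM in central, 295 ± 32.9 CPM in nasal and 323 ± 31.6 CPM in temporal tissue (-0.38 ± 0.06). The list of amacrine and horizontal cells had 4 higher and 4 lower of 31 gene models (12.9% each, against 5.36% and 4.16% of all gene models), and the median was -0.12. Without central replicate 4 the counts were 4 and 2. Among bipolar genes 1 of 24 was lower (4.17%) and 0 were higher, and 1 and 1 without that library. The lower gene was GRIK2 (ANOSAT021633), a kainate receptor subunit with 3 gene models of its symbol, at 6.12 ± 1.95 CPM in central, 50.8 ± 16.9 CPM in nasal and 31.8 ± 8.02 CPM in temporal tissue, a log2 fold change of -2.73 ± 0.15 without overlap.

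Ganglion cells send the axons of the optic nerve, and 3 of 32 gene models of their list were higher (9.38%) and 1 lower (3.12%). Over all gene models 5.36% were higher and 4.16% lower. The list median was 0.06, and without central replicate 4 the counts were 4 and 2, with a median of 0.13. POU4F2 (ANOSAT013049), a factor that specifies ganglion cells, was at 154 ± 37.9 CPM in central, 89.4 ± 8.91 CPM in nasal and 108 ± 4.13 CPM in temporal tissue. Its log2 fold change was 0.62 ± 0.09, with central replicate 4 within the range of temporal tissue. SLC17A6 (ANOSAT000766), their vesicular glutamate transporter, was at 292 ± 19.9 CPM in central, 155 ± 8.71 CPM in nasal and 238 ± 8.496 CPM in temporal tissue (0.60 ± 0.05) without overlap. SNCG (ANOSAT007927), gamma-synuclein of the axon, was lower at 81.8 ± 16.9 CPM in central, 110.5 ± 12.8 CPM in nasal and 127 ± 19.4 CPM in temporal tissue (-0.55 ± 0.08). Of 48 synaptic gene models 3 were higher (6.25%, against 5.36% of all gene models) and 1 was lower (2.08%, against 4.16%), and without central replicate 4 these were 7 and 1. SYT5 (ANOSAT014065), a synaptotagmin, was at 1189 ± 204 CPM in central, 602 ± 73.3 CPM in nasal and 494 ± 103 CPM in temporal tissue (1.12 ± 0.06), and CPLX3 (ANOSAT018870), the complexin of ribbon synapses, at 671 ± 130.3 CPM in central, 321 ± 85.8 CPM in nasal and 438 ± 41.8 CPM in temporal tissue (0.83 ± 0.09).

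Of 64 gene models of axon guidance 14 were lower (21.9%) and 3 higher (4.69%), against 4.16% and 5.36% of all gene models. The 14 included ANOSAT011739 and ANOSAT011740 of PLXNA4 and ANOSAT010421 and ANOSAT010422 of SEMA5A. Of the 14, 9 kept the call without the replicate block and in each other refit gene by gene. Leaving out central replicate 4 gave 14 lower and 4 higher. The median of the list was -0.04, the same as over all gene models tested. SEMA3F (ANOSAT005720) encodes a secreted repellent. It was present at 58.5, 63.9, 87.6, 80.8 and 104 CPM in the central libraries, against 219.9, 269, 289, 290.3 and 349 CPM in the nasal and 170.5, 192, 173, 166 and 184 CPM in the temporal libraries. Every central library was below every flanking library and nasal tissue was highest (log2 fold change -1.52 ± 0.09, adjusted p = 3.03e-09 against nasal and 1.05e-06 against temporal). PLXNB3 (ANOSAT004357), a semaphorin receptor, was at 62.3 ± 14.6 CPM in central, 177 ± 14.7 CPM in nasal and 134 ± 17.4 CPM in temporal tissue, a log2 fold change of -1.33 ± 0.10. DRAXIN (ANOSAT021339), a guidance cue that binds DCC, was at 0.382 ± 0.268 CPM in central, 3.12 ± 0.861 CPM in nasal and 1.76 ± 0.677 CPM in temporal tissue (-2.67 ± 0.46). SLIT2 (ANOSAT012496), a ligand of ROBO receptors, was at 418 ± 28.6 CPM in central, 541 ± 44.5 CPM in nasal and 593 ± 33.9 CPM in temporal tissue (-0.44 ± 0.06). NRP2 (ANOSAT001699), the neuropilin through which SEMA3F acts, was higher, at 91.2 ± 19.3 CPM in central, 32.96 ± 4.55 CPM in nasal and 57.4 ± 6.2 CPM in temporal tissue, a log2 fold change of 1.05 ± 0.10.

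Müller glia span the retina and recycle the chromophore of cones and the transmitter glutamate. Of 26 gene models of their list 5 were higher (19.2%) and 4 lower (15.4%), against 5.36% and 4.16% of all gene models. The median was 0.10, and without central replicate 4 the counts were 6 and 6, with a median of -0.00. Among the lower members with all libraries were ANOSAT020215 and ANOSAT020216 of TNC, so this symbol counted more than once. GFAP (ANOSAT014511) is an intermediate filament protein of glia. Its values were 529.7, 627, 519, 507 and 578 CPM in the central libraries, against 153, 135, 135, 120.1 and 69.7 CPM in the nasal and 368, 378, 366, 388 and 302 CPM in the temporal libraries. The 3 regions did not overlap, in the order central, temporal, nasal, and the log2 fold change was 1.42 ± 0.11 (adjusted p = 9.07e-09 against nasal and 0.00367 against temporal). RLBP1 (ANOSAT018645), a retinaldehyde binder of Müller glia and pigment epithelium, was at 506 ± 132 CPM in central, 207 ± 11.8 CPM in nasal and 268 ± 43.3 CPM in temporal tissue (1.08 ± 0.08), and FABP7 (ANOSAT002344), a fatty acid binder of glia and progenitors, at 916 ± 229 CPM in central, 429 ± 56.2 CPM in nasal and 467 ± 51.5 CPM in temporal tissue (1.01 ± 0.08). SLC1A3 (ANOSAT003446), their glutamate transporter, was lower at 1053 ± 259 CPM in central, 1434 ± 108 CPM in nasal and 1869 ± 175 CPM in temporal tissue, a log2 fold change of -0.66 ± 0.09. CRYM (ANOSAT017273), which binds thyroid hormone, was lower at 16.6 ± 5.08 CPM in central, 46.3 ± 7.26 CPM in nasal and 45.05 ± 6.14 CPM in temporal tissue (-1.49 ± 0.16) with no overlap. CA2 (ANOSAT011243) is a carbonic anhydrase of Müller glia and was chosen after its values were seen. The gene had 4902, 7710, 4794, 5863 and 5456 CPM in the central libraries, against 1066, 1102, 1001, 743 and 714 CPM in the nasal and 2005, 2217, 2060, 2089 and 2042 CPM in the temporal libraries. All central libraries exceeded all flanking ones, by 2.04 ± 0.09 on the log2 scale.

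Genes of the pigment epithelium moved in both directions. LRAT, RPE65 and RDH5 of the visual cycle and the retinol receptor STRA6 were higher, and TTR, BEST1 and GPR143 were lower. LRAT (ANOSAT013013) stores retinol as esters. It came to 26.4, 32.7, 23.2, 71.8 and 25.7 CPM in the central libraries, against 6.82, 3.42, 4.34, 8.26 and 2.62 CPM in the nasal and 9.49, 9.397, 15.9, 15.1 and 7.52 CPM in the temporal libraries. The groups did not overlap, central replicate 4 was the highest library, and the log2 fold change was 2.19 ± 0.18 (adjusted p = 2.17e-07 against nasal and 0.000136 against temporal). RPE65 (ANOSAT010247), the isomerase of the cycle, was at 412 ± 69 CPM in central, 211 ± 22.4 CPM in nasal and 305 ± 62.8 CPM in temporal tissue (0.70 ± 0.08), but its call was lost without the replicate block (adjusted p = 0.0787). TTR (ANOSAT011075), a carrier of thyroid hormone and of retinol-binding protein, was lower in all central libraries, at 79.4 ± 19.6 CPM in central, 277 ± 31.6 CPM in nasal and 310.4 ± 53.5 CPM in temporal tissue, a log2 fold change of -1.89 ± 0.12. PMEL (ANOSAT004817), the pigment cell gene with the most reads, was at 582 ± 167 CPM in central, 637 ± 112 CPM in nasal and 778 ± 59.9 CPM in temporal tissue, with its highest central value in replicate 4, and it was called lower without that library (larger adjusted p = 0.00459) and in limma-voom with sample weights (0.00693). Of 23 gene models of the list 4 were higher (17.4%) and 3 lower (13%), against 5.36% and 4.16% of all gene models. The median was 0.01, and without central replicate 4 the counts were 4 and 6 with a median of -0.24. Without the replicate block 1 of the 4 and 2 of the 3 kept the call. The summed level was 1874 to 3356 CPM in central libraries, with replicate 4 at the top, 1968 to 2380 CPM in nasal and 2388 to 2961 CPM in temporal libraries. The part of pigment epithelium in the changes of LRAT, RPE65 and RLBP1 was not tested.

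Lens genes were higher for 4 of 12 gene models (33.3%) and lower for 0, against 5.36% and 4.16% of all gene models. Their median was 0.60, and 3 of the 4 kept the call without the replicate block. Both CRYAB ANOSAT017970 and CRYAB ANOSAT016598 were among the 4. ASL (ANOSAT019903) is the urea cycle enzyme that birds and reptiles also use as a lens crystallin. It measured 68.5, 92.8, 70.3, 64.97 and 153 CPM in the central libraries, against 0.859, 1.003, 0.838, 0.795 and 0.318 CPM in the nasal and 7.51, 8.56, 13.3, 5.21 and 37.1 CPM in the temporal libraries. All central libraries were above all flanking ones and nasal tissue was lowest (log2 fold change 4.87 ± 0.25, adjusted p = 3.16e-09 against nasal and 4.79e-06 against temporal). CRYAB ANOSAT017970, a small heat shock protein and lens crystallin, was at 149 ± 17.2 CPM in central, 10.5 ± 3.31 CPM in nasal and 52.1 ± 16.7 CPM in temporal tissue (2.71 ± 0.15). BFSP2 (ANOSAT014838), a lens filament protein, was at 10.2 ± 3.48 CPM in central, 2.06 ± 0.699 CPM in nasal and 5.35 ± 1.22 CPM in temporal tissue, and its call was lost without central replicate 2 (adjusted p = 0.0631), central replicate 5 (0.0744) or temporal replicate 2 (0.0724). The crystallins that mark lens fibres had few reads. CRYAA averaged 0.774 CPM in central, 0.137 CPM in nasal and 1.12 CPM in temporal tissue, and CRYBA1, CRYBB1, CRYBB2 and CRYBB3 averaged at most 2.50 CPM in any region. The summed level of the list was 239 to 348 CPM in central, 27.2 to 45.3 CPM in nasal and 77.8 to 134 CPM in temporal libraries, with ASL and CRYAB as the members with the most reads in the central region. The part of lens tissue in these values was not tested.

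Genes of sclera, cartilage and mesenchyme were higher for 4 of 38 gene models (10.5%) and lower for 0, against 5.36% and 4.16% of all gene models. Their median was 0.25, and none of the 4 kept the call in each refit gene by gene. Leaving out central replicate 4 gave 3 higher and 2 lower, with a median of 0.07. COL3A1 (ANOSAT001563) is a fibrillar collagen. Levels were 112, 124, 126, 497 and 129 CPM in the central libraries, against 39.7, 109, 62.2, 74.1 and 53.4 CPM in the nasal and 61.2, 50.9, 86.8, 164 and 74.4 CPM in the temporal libraries. Central replicate 4 held the highest value by far and the other central libraries overlapped with temporal replicate 4. The call was lost without central replicate 4 (adjusted p = 0.146), without the replicate block (0.119) and without the filter on low counts (0.0896). DCN (ANOSAT012219), the proteoglycan decorin, was at 95.5 ± 104 CPM in central, 32.3 ± 17.2 CPM in nasal and 27.3 ± 16.2 CPM in temporal tissue, again with central replicate 4 highest, and its call was lost without the replicate block (0.153) and without the filter (0.0657). CHAD (ANOSAT005278), a cartilage protein, was at 2.56 ± 1.52 CPM in central, 0.343 ± 0.271 CPM in nasal and 0.719 ± 0.391 CPM in temporal tissue, with the call lost without central replicate 1 (0.0709), temporal replicate 3 (0.052) or the replicate block (0.0759). The summed level of these genes moved with central replicate 4, as given with the library totals, and its part in the other differences was not tested.

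Genes of matrix glycoproteins, basement membrane collagens and integrins were divided, with 9 higher (12.2%) and 7 lower (9.46%) of 74 gene models. Over all gene models 5.36% were higher and 4.16% lower. Without central replicate 4 the counts of the list were 9 and 13. With all libraries, the lower members included ANOSAT021555, ANOSAT021557 and ANOSAT021558 of AGRN. They also included ANOSAT020215 and ANOSAT020216 of TNC, so these symbols counted more than once. CCN3 (ANOSAT011373) is a matricellular signalling protein. It ranged widely, with 25.1, 9.02, 31.1, 57.6 and 23.7 CPM in the central libraries, against 1.88, 1.42, 1.73, 1.17 and 1.07 CPM in the nasal and 1.25, 0.916, 3.38, 1.49 and 2.23 CPM in the temporal libraries. All central libraries were above all flanking ones although replicate 4 was highest, and without it the log2 fold change of 4.01 ± 0.27 became 3.63. THBS1 (ANOSAT000491), thrombospondin, was at 136 ± 65.1 CPM in central, 59.4 ± 11.1 CPM in nasal and 66.3 ± 17.96 CPM in temporal tissue (1.05 ± 0.10), with replicate 4 highest and no overlap. The 3 gene models of COL4A6, a collagen of basement membranes, were all higher, and COL4A6 ANOSAT019374 was at 15.8 ± 3.78 CPM in central, 4.57 ± 2.19 CPM in nasal and 5.47 ± 1.23 CPM in temporal tissue (1.74 ± 0.23). Reads may have been split between them, and the call of COL4A6 ANOSAT019375 was lost in 7 of the 15 fits that left out a library, at adjusted p from 0.0508 (without central replicate 3) to 0.101 (without central replicate 2). LAMA1 (ANOSAT011011), a laminin chain of the inner limiting membrane, was lower at 44.7 ± 11.3 CPM in central, 81.5 ± 18.2 CPM in nasal and 71.8 ± 5.41 CPM in temporal tissue, a log2 fold change of -0.79 ± 0.12.

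The other genes with the largest rises came from no single list. MGP (ANOSAT012150), which keeps cartilage and vessels from calcifying, was at 13.2 ± 4.33 CPM in central, 0.114 ± 0.141 CPM in nasal and 2.33 ± 1.36 CPM in temporal tissue (4.78 ± 0.30). TBX18 (ANOSAT002191), a T-box factor of mesenchyme, was at 11.7 ± 6.004 CPM in central, 0.1797 ± 0.0792 CPM in nasal and 1.52 ± 0.977 CPM in temporal tissue (4.46 ± 0.28), and KCNJ15 (ANOSAT008574), a potassium channel, at 14.7 ± 5.42 CPM in central, 0.696 ± 0.269 CPM in nasal and 1.703 ± 0.2998 CPM in temporal tissue (3.71 ± 0.24). In both the highest library was central replicate 4, and the central libraries stayed above the flanks without it. UBAP1L (ANOSAT018925) was at 8.7 ± 0.967 CPM in central, 0.32 ± 0.315 CPM in nasal and 1.98 ± 0.589 CPM in temporal tissue (3.56 ± 0.30). NR1H4 (ANOSAT009769) is the bile acid receptor. It was found at 5.74, 5.68, 4.77, 18.9 and 5.62 CPM in the central libraries, against 0.644, 1.04, 0.542, 0.106 and 0.477 CPM in the nasal and 1.19, 0.199, 0.375, 0.679 and 1.24 CPM in the temporal libraries. Central replicate 4 was more than 3 times as high as the others, which were still above all flanking libraries, and without it the log2 fold change of 3.52 ± 0.44 was 2.96.

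PDZRN3 and BDNF were chosen after their values were seen. PDZRN3 (ANOSAT005991) is a ubiquitin ligase of synapses and vessels. Its level came to 261, 281, 288, 343 and 253 CPM in the central libraries, against 42.3, 37.97, 36.4, 44.02 and 37.8 CPM in the nasal and 42.6, 43.1, 45.6, 43.3 and 46.95 CPM in the temporal libraries. The flanks were nearly level with each other (nasal minus temporal -0.16 ± 0.08, adjusted p = 0.217) and far below the central libraries, a log2 fold change of 2.76 ± 0.07 with the smallest adjusted p of the named genes (adjusted p = 6.48e-12 against nasal and 2.88e-11 against temporal). BDNF (ANOSAT000779) is a neurotrophin that supports ganglion cells. It was at 22.3, 21.9, 17.5, 18.5 and 21.9 CPM in the central libraries, against 3.01, 3.17, 2.17, 1.91 and 2.66 CPM in the nasal and 6.196, 6.25, 8.19, 8.47 and 7.19 CPM in the temporal libraries. Central libraries were all above the flanks and nasal tissue was lowest (log2 fold change 2.23 ± 0.14).

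Among the largest falls, DACT2 (ANOSAT002560), a modulator of WNT and TGF-beta signals, was at 13.8 ± 2.17 CPM in central, 76.4 ± 9.28 CPM in nasal and 61.03 ± 6.17 CPM in temporal tissue (-2.32 ± 0.09) without overlap, and the flanks differed less (nasal minus temporal 0.32 ± 0.09). PYGM (ANOSAT021026), the muscle form of glycogen phosphorylase, was at 11.2 ± 3.73 CPM in central, 43.2 ± 13.7 CPM in nasal and 68.01 ± 16.9 CPM in temporal tissue (-2.27 ± 0.11), although muscle genes as a list did not follow, with 0 higher and 1 lower of 22. That gene was CKM (ANOSAT015565), muscle creatine kinase, at 0.723 ± 0.434 CPM in central, 3.501 ± 2.29 CPM in nasal and 3.605 ± 2.85 CPM in temporal tissue, and its call was lost without the replicate block (adjusted p = 0.0695) and without central replicate 2 (0.0591), central replicate 3 (0.0518) or temporal replicate 2 (0.0767). CFP (ANOSAT004158), the complement factor properdin, was at 0.517 ± 0.3102 CPM in central, 5.88 ± 1.82 CPM in nasal and 4.25 ± 1.87 CPM in temporal tissue (-3.18 ± 0.44). MYCL (ANOSAT016028), a factor of the MYC family, was at 4.26 ± 2.83 CPM in central, 24.6 ± 4.99 CPM in nasal and 14.2 ± 1.85 CPM in temporal tissue (-2.25 ± 0.35), with the lowest value, 0.0641 CPM, in central replicate 4. PECR (ANOSAT018433), a peroxisomal enzyme of fatty acid metabolism with 3 gene models of its symbol, was at 11.6 ± 3.902 CPM in central, 63.4 ± 20.4 CPM in nasal and 44.99 ± 14.2 CPM in temporal tissue (-2.20 ± 0.20).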

How the data were processed

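Total RNA of central, nasal and temporal posterior globe was sequenced from 5 libraries per region after a TruSeq Stranded mRNA preparation. The values are whole read counts that the authors deposited without normalization, with a column for each library and a line for each gene model. The submitters' processing notes name HISAT2 2.2.1 and featureCounts, while the genome build, the annotation and the strand setting were not given in the sources used here. The table copy breaks off without a final line end, and further gene models may follow the 20235 read here, and 0 value columns were left unmapped. Groups came from the sample labels. Members and gene lists were chosen with earlier results of these data known.

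Counts were filtered with filterByExpr (minimum count 10), scaled by TMM (factors 0.975 to 1.02) and fitted in a single edgeR 4.0.16 quasi-likelihood model (R 4.3.3) with region and replicate number. Central minus nasal, central minus temporal and central minus their mean were tested two-sided with Benjamini-Hochberg adjustment over all 15910 gene models, at 0.05. The block was part of the planned fit. Libraries of the same number deviated together from their region means (correlation 0.193 to 0.524 in 15 of 15 pairs, all over 0.1, against -0.339 to 0.256 in 60 pairs of different numbers, 3 of them over 0.1). Replicates of a region differed by more than sampling noise (chi-square per degree of freedom 10.3 to 66.9 in 30 pairs). Symbols were taken from the table, and lists were matched to them without regard to case. The text names the 12 gene models per direction with the largest change among those of the pattern that qualified (390 higher and 264 lower). To qualify, a gene model did not overlap with the flanks and carried a symbol other than a LOC or ANOSA identifier. It also averaged at least 5 CPM, in the central region if higher and in the mean of both flanks if lower. Also named are up to 4 members of each list by size of change, the member with the most reads, and genes said to be chosen after their values were seen. A few of these gene models are not reported here.

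Alternatives were RLE and upper-quartile scaling, no filter and a stricter filter, DESeq2 1.42.0, limma-voom (limma 3.58.1), no replicate block, 2 regions only, an adjusted p of 0.01, and each library left out in turn. In simulated counts for 15785 gene models, 75 of 99 changed 2-fold and 87 of 100 changed 4-fold against both flanks were recovered with 1 false call. The simulated counts took the dispersion of each gene model from these data. Differences between replicate numbers were drawn at random with a spread set by hand, independently for each gene model. The simulated counts had no difference between the flanks and no library set apart like central replicate 4. They therefore give no rate of recovery or of false calls for the real counts. Figures were drawn with matplotlib 3.10.9 in Python 3.11.15.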

Additional observations from a re-analysis of the deposited data

Results flagged for a closer look

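In each region of 5 libraries the library furthest from the rest was set against the others, and a gap of more than 0.71 of the whole range was taken as standing apart, as chance gives in about 1 in 20 groups. Of 375 such tests 30 passed this limit, 1 of 6 for library totals and gene models detected, 27 of 351 for named genes and 2 of 18 for summed lists. Central replicate 4 had reads in 14994 gene models, against 17603 to 18617 in the other central libraries. It also had the highest central sum of the pigment epithelium list, 3356.17 CPM against 1874.34 to 2270.2 CPM in the other central libraries, and of the sclera, cartilage and mesenchyme list, 4148.56 CPM against 594.329 to 1572.14 CPM.

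Central replicate 4 was the highest central library for NR1H4 at 18.92 CPM (other central libraries 4.774 to 5.737), AHRR at 2.245 CPM (other central libraries 0.8535 to 1.221), INHBA at 1.924 CPM (other central libraries 0.3342 to 0.6839), LRAT at 71.83 CPM (other central libraries 23.2 to 32.66), PMEL at 877.3 CPM (other central libraries 481.0 to 544.1), COL3A1 at 497.0 CPM (other central libraries 112.5 to 128.8), DCN at 276.5 CPM (other central libraries 13.25 to 79.39) and THBS1 at 252.0 CPM (other central libraries 99.58 to 117.4). Central replicate 4 was the lowest central library for GUCA1B at 8.273 CPM (other central libraries 19.35 to 23.17) and LFNG at 1.411 CPM (other central libraries 7.631 to 9.722). Central replicate 5 was the highest central library for NR2E3 at 1.319 CPM (other central libraries 0 to 0.3331). Nasal replicate 1 was the highest nasal library for HK2 at 5.691 CPM (other nasal libraries 1.774 to 2.622), GPI at 817.8 CPM (other nasal libraries 447.8 to 550.6) and CPLX3 at 468.6 CPM (other nasal libraries 267.2 to 324.7).

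Nasal replicate 2 was the highest nasal library for LAMA1 at 113.0 CPM (other nasal libraries 66.47 to 77.93). Nasal replicate 5 was the highest nasal library for GRIK2 at 80.55 CPM (other nasal libraries 39.23 to 47.57). Temporal replicate 1 was the lowest temporal library for SPRY2 at 27.69 CPM (other temporal libraries 35.52 to 37.9). Temporal replicate 2 was the highest temporal library for ZIC2 at 6.61 CPM (other temporal libraries 2.354 to 3.001), ZIC1 at 14.18 CPM (other temporal libraries 3.141 to 5.939) and DRAXIN at 2.947 CPM (other temporal libraries 1.318 to 1.695). Temporal replicate 3 was the highest temporal library for POU4F2 at 114.9 CPM (other temporal libraries 104.7 to 106.6). Temporal replicate 4 was the highest temporal library for ENO2 at 1583 CPM (other temporal libraries 1190 to 1274). Temporal replicate 5 was the highest temporal library for PAX2 at 0.8266 CPM (other temporal libraries 0.2717 to 0.3955) and ASL at 37.11 CPM (other temporal libraries 5.207 to 13.32). Temporal replicate 5 was the lowest temporal library for STRA6 at 29.39 CPM (other temporal libraries 48.19 to 53.14), SLC16A1 at 196.3 CPM (other temporal libraries 259.6 to 278.4) and GFAP at 302.4 CPM (other temporal libraries 366.5 to 388.1).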

How the results depend on the processing

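The counts of gene models higher (852) and lower (662) in central than in both flanks stayed within 1.5 times under RLE and upper-quartile scaling, both other filters, DESeq2 and the fit of 2 regions only. In limma-voom with sample weights 1403 were higher and 1152 lower, and 3544 differed between central and temporal. Without the replicate block 492 were higher and 343 lower, 2406 differed between central and the mean of the flanks, 2925 between central and nasal and 1078 between central and temporal. At an adjusted p of 0.01, 496 were higher and 346 lower. With 1 library left out the count of higher gene models ran from 615 to 954 and that of lower ones from 460 to 765, with 2929 to 3977 for central against the mean of the flanks, 3550 to 5095 against nasal and 1357 to 2278 against temporal. The cause was not tested. Of 204 named gene models and list members 196 were called. In the settings refitted gene by gene, which leave out the fit of 2 regions and the adjusted p of 0.01, 129 of these kept the call and all 204 the direction, with 203 of the 204 fitted under the stricter filter. Genes with few reads were limited by depth, since 3 counts in a library amount to 0.111 to 0.198 CPM.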
